A study of Mus musculus with 13 samples.

Results

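The genes described here encode the CD94 and NKG2 receptors of natural killer (NK) cells and their neighbours in the NK gene complex on mouse chromosome 6. They are Klrd1, Klrc1, Klrc2, Klrc3, Klrk1, Klre1, Klri1, Klri2 and Styk1, chosen by name and found by Ensembl identifier. All 9 were present among the 54532 gene identifiers of each count file, and all 9 passed the filter on low counts in every comparison.

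CD94, the product of Klrd1, is a C-type lectin-like protein that has almost no cytoplasmic tail of its own and reaches the cell surface paired with an NKG2 partner. With NKG2A (Klrc1) it forms an inhibitory receptor, and with NKG2C (Klrc2) or NKG2E (Klrc3) a receptor that signals through the adaptor DAP12 (Tyrobp); the mouse ligand is the non-classical class I molecule Qa-1 (H2-T23). NKG2D (Klrk1) is an activating receptor for stress-induced ligands such as the RAE-1 proteins and signals through DAP10 (Hcst) and, in mouse, also DAP12. KLRE1 pairs with KLRI1, whose tail carries inhibitory motifs, or with KLRI2, which lacks them. Styk1 is not a lectin: it encodes a membrane protein with a kinase-like domain, and its gene lies in the same chromosomal region.

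Sorted NK cells of 2 kinds from C57BL/6J mice aged 8 to 10 weeks were profiled by RNA-seq. Liver-resident NK cells (LrNK) came from liver lymphocytes and conventional NK cells (cNK) from splenocytes, so cell type and organ cannot be told apart. The groups were LrNK labelled CD8KO (3 libraries), LrNK WT (4), cNK labelled CD8KO (3) and cNK WT (3). The labels describe CD8KO as CD8-/- mice without giving the allele, and the series title places the study in the maturation of LrNK cells. Nothing in the labels says that libraries came from separate animals, so p-values measure the spread between these samples, which may be technical.

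Depth, counted in blocks of 1000000, ran from 35.9 to 47.7 per library in LrNK labelled CD8KO, 30.6 to 43.0 in LrNK WT, 48.6 to 59.7 in cNK labelled CD8KO and 53.5 to 72.7 in cNK WT. Libraries 2 and 3 of LrNK labelled CD8KO agreed closely with each other (chi-square per degree of freedom 2.67), as did libraries 2 and 4 of LrNK WT (3.04), while the other LrNK pairs gave 196 to 283. Each close pair was summed and counted as sample 2 of its group, which left n = 2, 3, 3 and 3. LrNK libraries also differed in detected genes: library 1 of LrNK labelled CD8KO and libraries 1 and 3 of LrNK WT had 13917 to 15797, the other LrNK libraries 19896 to 22921 and cNK libraries 22250 to 22778. The biological coefficient of variation was 98.2% within LrNK and 9.60% within cNK. Cd8a was not lost under the CD8KO label. It had 41.6, 42.6 and 45.1 CPM (counts per 1000000 counts of the library) in LrNK libraries labelled CD8KO against 18.5 to 22.4 CPM in LrNK WT, and 87.3, 85.9 and 109 CPM in cNK libraries labelled CD8KO against 0.561 to 0.578 CPM in cNK WT. Which exons gave these reads cannot be seen from gene totals, and the label is used as given. Summed over 7 liver-resident markers, including Itga1 and Cxcr6, the level was 1004 and 1018 CPM in LrNK labelled CD8KO, 1278 to 1759 in LrNK WT, 123 to 145 in cNK labelled CD8KO and 105 to 130 in cNK WT. Summed over 8 conventional markers, including Itga2 and Eomes, it was 680.5 and 752 CPM in LrNK labelled CD8KO, 242 to 671 in LrNK WT, 4550 to 4786 in cNK labelled CD8KO and 4851 to 4980 in cNK WT.

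The gene cluster is compact. On GRCm38 chromosome 6, Klre1 (129577905 to 129585827) and Klrd1 (129591782 to 129598775) lie on the plus strand. Klrk1 (129610323 to 129623864), Klrc3 (129639064 to 129643337), Klrc2 (129647496 to 129660689), Klrc1 (129666015 to 129678973), Klri1 (129697218 to 129717132) and Klri2 (129729041 to 129740484) follow on the minus strand. Styk1 (131299142 to 131353597) stands further out, also on the minus strand. None of the 9 overlapped another annotated gene, and all lay 58.2 to 59.9 Mb from Cd8a on the same chromosome.

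The NKG2 genes are close copies of each other, which matters for how reads are shared between them. The 300 bases around the annotated start (250 before, 50 after) of the Klrc genes are shown because Klrc2 and Klrc3 were lower together in LrNK WT than in cNK WT while Klrc1 was higher. All are RefSeq sequences of GRCm38.p6 on the minus strand, 5′ to 3′, at chr6:129678924-129679223 for Klrc1, chr6:129660507-129660806 for Klrc2 and chr6:129643239-129643538 for Klrc3. Capitals mark the Runx motif TGTGGT (or ACCACA on the other strand) and the E-box CACGTG, which did not overlap.
Klrc1: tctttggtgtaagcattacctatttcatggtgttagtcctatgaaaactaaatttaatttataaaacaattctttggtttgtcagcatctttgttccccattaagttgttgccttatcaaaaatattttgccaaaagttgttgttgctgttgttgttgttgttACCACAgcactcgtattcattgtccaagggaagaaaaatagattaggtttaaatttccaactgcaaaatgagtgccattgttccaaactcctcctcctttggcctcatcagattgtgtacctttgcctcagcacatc
Klrc2: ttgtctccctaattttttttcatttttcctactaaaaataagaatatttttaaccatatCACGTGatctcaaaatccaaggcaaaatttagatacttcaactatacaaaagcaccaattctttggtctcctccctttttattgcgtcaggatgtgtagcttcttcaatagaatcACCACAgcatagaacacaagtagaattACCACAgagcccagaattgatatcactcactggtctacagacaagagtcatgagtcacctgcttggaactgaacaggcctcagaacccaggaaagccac
Klrc3: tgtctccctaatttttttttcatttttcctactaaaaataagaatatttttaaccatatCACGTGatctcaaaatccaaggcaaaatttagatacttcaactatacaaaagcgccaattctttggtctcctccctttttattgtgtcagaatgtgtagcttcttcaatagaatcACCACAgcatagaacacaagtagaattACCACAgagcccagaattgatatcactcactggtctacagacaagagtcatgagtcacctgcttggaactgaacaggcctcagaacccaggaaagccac
The Klrc2 and Klrc3 windows were identical at 296 of 299 aligned bases (99.0%), whereas the Klrc1 window matched Klrc2 at 54.4% and Klrc3 at 55.0% of aligned bases. Klrc2 has another annotated start, with a window at chr6:129660547-129660846 that is not shown. That window matched Klrc1 at 63.55% of 214 aligned bases and Klrc3 at 98.84% of 259. Klrc2 and Klrc3 each held 2 Runx matches and 1 E-box, and Klrc1 held 1 Runx match and no E-box. Among 32851 RefSeq promoter windows of this length, 16.8% held the Runx motif and 7.15% the E-box. The T-box motif TCACAC (or GTGTGA), present in 14.5% of windows, was in none of the 3, and the Ets letters GGAA (or TTCC) were in all 3, as in 96.0% of windows. The likeness extends to the transcripts: 38.6% of the 50-base stretches of Klrc1 transcripts, 16.3% of those of Klrc2 and 36.3% of those of Klrc3 also occurred in another gene, mostly in each other. The split of counts among the Klrc genes is therefore uncertain. Klri1 (5.83%) and Klri2 (2.77%) shared little, and Klrd1 and Klrk1 shared no such stretch.

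**Figure D1:**
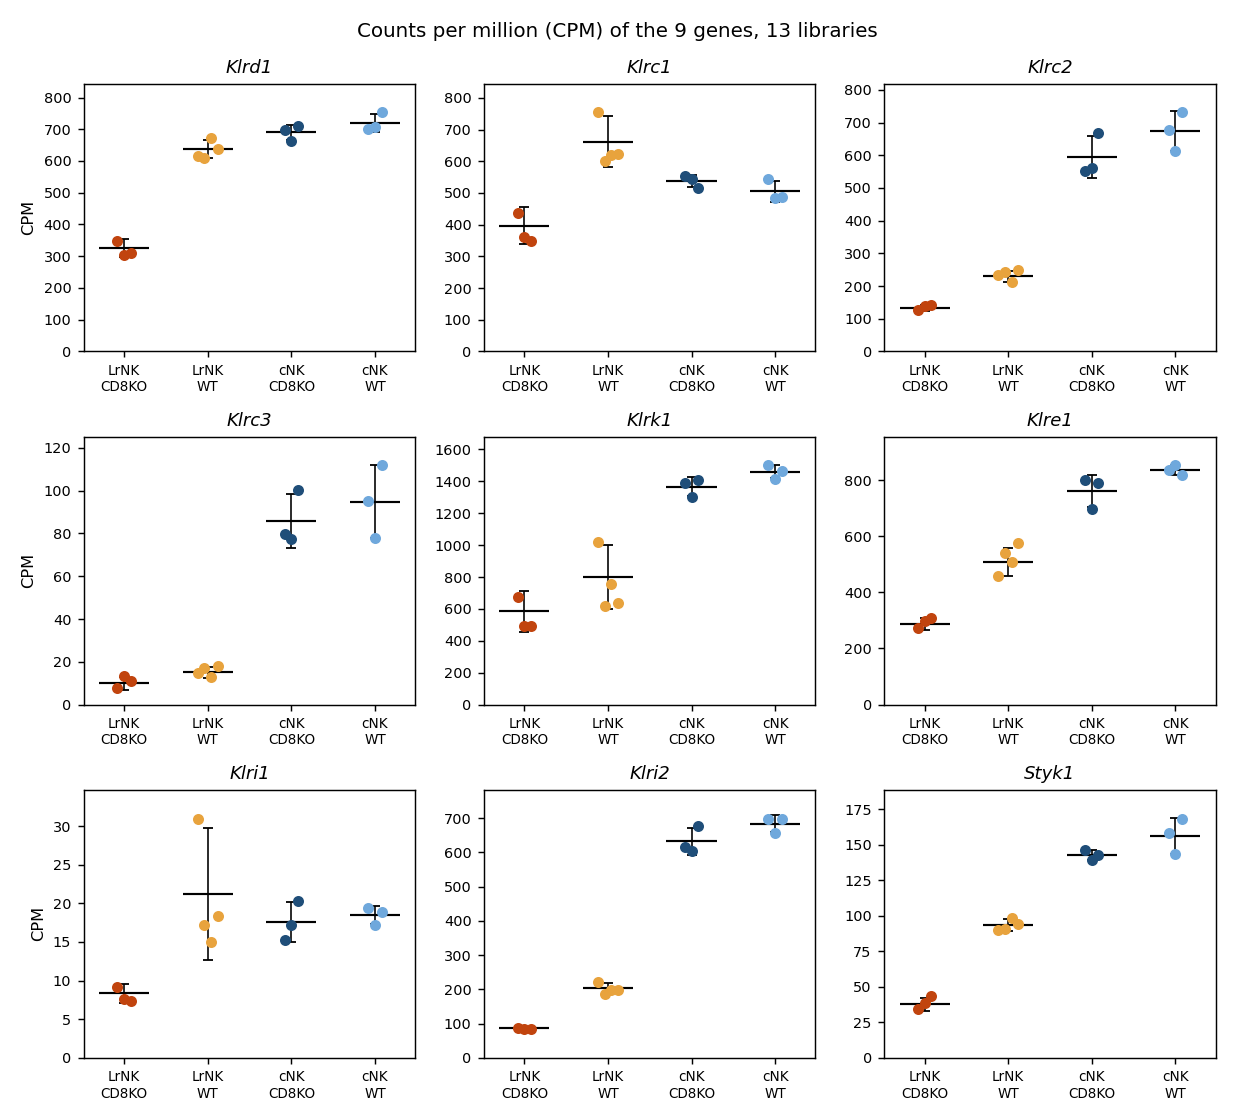
CPM of each gene in 13 libraries (points) by group, with the mean and SD over samples (bars), close library pairs counted as 1 sample; each panel has its own vertical scale from 0. The LrNK libraries labelled CD8KO sit below all LrNK WT libraries in each panel except those of Klrk1 and Klrc3, and Klrc2, Klrc3 and Klri2 are low in both LrNK groups against cNK.

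Per kilobase of annotated exon, Klrd1 had the highest level of the family in every group, at 255 ± 22.3 CPM per kb in LrNK labelled CD8KO, 498 ± 22.99 in LrNK WT, 539 ± 19.3 in cNK labelled CD8KO and 563 ± 22.2 in cNK WT (SD, n = 2, 3, 3 and 3). Klrc1 came next in all 4 groups, at 199.7 ± 29.5 CPM per kb in LrNK labelled CD8KO, 333 ± 40.6 in LrNK WT, 271 ± 9.74 in cNK labelled CD8KO and 254 ± 16.9 in cNK WT. In cNK WT the order went on with Klre1 at 239, Klrk1 at 203, Klri2 at 175, Klrc3 at 129, Klrc2 at 116, Styk1 at 26.7 and Klri1 at 21.999 CPM per kb. Klrc1 and Klre1 stood within their SDs of each other there, as did Klrc3 and Klrc2, and the other neighbours were farther apart than their SDs. In LrNK WT the order was Klre1 at 146, Klrk1 at 112, Klri2 at 52.0, Klrc2 at 39.7, Klri1 at 25.3, Klrc3 at 20.5 and Styk1 at 16.0 CPM per kb. Klre1 and Klrk1 overlapped within their SDs in LrNK WT, and so did Klri1 with both Klrc3 and Styk1. These values use the exon length of GENCODE M21 and depend on it. Together the 9 genes took 0.187% of all counts in LrNK labelled CD8KO, 0.317% in LrNK WT, 0.483% in cNK labelled CD8KO and 0.515% in cNK WT (means over samples).

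The largest differences between LrNK WT and cNK WT were in Klrc3, Klri2 and Klrc2, all lower in LrNK WT. Of the 9 genes, 6 were lower in LrNK WT (Klrc3, Klri2, Klrc2, Klrk1, Styk1 and Klre1), 1 was higher (Klrc1), and Klrd1 and Klri1 did not pass. With edgeR's quasi-likelihood test on these 2 groups, 20.4% of all genes tested passed an adjusted p of 0.05 (3354 of 16456), and the 9 genes had a median log2 change of -0.66 against -0.08 over all genes tested.

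Klrd1 had 617, 624 and 671 CPM in LrNK WT against 701, 707 and 753 in cNK WT. The groups stood apart by a narrow gap, and the log2 change of -0.10 ± 0.10 (SE; 95% interval -0.32 to 0.13) did not pass (edgeR adjusted p = 0.568). Its inhibitory partner Klrc1 had 754, 611 and 620 CPM in LrNK WT against 544, 485 and 486 in cNK WT. All 3 LrNK WT samples were above all cNK WT samples, and Klrc1 rose by a log2 change of 0.47 ± 0.12 (edgeR adjusted p = 0.036). The Klrc1 call was lost without sample 1 of LrNK WT, its highest (edgeR adjusted p = 0.0507), and without any one cNK WT sample (edgeR adjusted p 0.128 to 0.181).

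The activating partners went the other way. Klrc2 had 233, 246 and 213 CPM in LrNK WT against 679, 611 and 731 in cNK WT. Klrc3 had 14.8, 17.6 and 12.8 CPM in LrNK WT against 94.98, 77.7 and 112 in cNK WT. Every LrNK WT sample was far below every cNK WT sample, and both genes fell. The log2 change was -1.46 ± 0.13 for Klrc2 (edgeR adjusted p = 0.00107) and -2.56 ± 0.21 for Klrc3 (edgeR adjusted p = 0.000885), a 5.91-fold difference for Klrc3. Klrk1, which encodes NKG2D, had 1019, 627 and 757 CPM in LrNK WT against 1499, 1418 and 1465 in cNK WT. Sample 1 of LrNK WT was the highest of its group but still below cNK WT, and Klrk1 fell (log2 change -0.79 ± 0.16, edgeR adjusted p = 0.0215).

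Of KLRE1 and its partners, Klre1 and Klri2 fell and Klri1 did not pass. Klre1 had 459, 558 and 509 CPM in LrNK WT against 836, 852 and 819 in cNK WT, with a log2 change of -0.63 ± 0.13 (edgeR adjusted p = 0.0205). Klri2, the partner without inhibitory motifs, had 221, 192 and 198 CPM in LrNK WT against 697, 656 and 698 in cNK WT. Its log2 change of -1.67 ± 0.10 had the smallest p of the 9 genes (edgeR adjusted p = 0.000213). Klri1, the partner with them, had 31.0, 17.8 and 14.98 CPM in LrNK WT against 19.4, 17.1 and 18.8 in cNK WT. These groups overlapped, and the change of 0.28 ± 0.28 (95% interval -0.40 to 0.96) did not pass (edgeR adjusted p = 0.577). Styk1 had 89.9, 92.5 and 98.5 CPM in LrNK WT against 158, 143 and 169 in cNK WT, and fell (log2 change -0.66 ± 0.11, edgeR adjusted p = 0.00863). The calls of Klrc2, Klrc3 and Klri2 held whichever sample was left out. Those of Klrk1 (edgeR adjusted p 0.0652 to 0.0724) and Klre1 (0.0858 to 0.092) were lost without any one cNK WT sample, and that of Styk1 without cNK WT sample 1 (0.058) or 3 (0.0625). Summed levels of markers of other cells differed between these groups too, except for Kupffer cells. The 12 T cell genes gave 1423 to 1778 CPM in LrNK WT (11 above 1 CPM, Cd8b1 at 0) and 586 to 622 in cNK WT (10 above 1 CPM). The 10 neutrophil and monocyte genes gave 721 to 4385 CPM in LrNK WT (7 above 1 CPM) and 347 to 363 in cNK WT (5 above 1 CPM), with Mpo and Elane at 0 in both groups. The 8 hepatocyte genes gave 30.1 to 52.9 CPM in LrNK WT (7 above 1 CPM) and 1.34 to 2.15 in cNK WT (1 above 1 CPM, with Ttr, Serpina1a, Fgb and Ahsg at 0). The 10 Kupffer cell genes gave 113 to 335 CPM in LrNK WT (9 above 1 CPM) and 189 to 245 in cNK WT (8 above 1 CPM, Clec4f at 0), which overlapped. The 10 B cell genes gave 240 to 365 CPM in LrNK WT (5 above 1 CPM) and 179 to 193 in cNK WT (4 above 1 CPM). Their part in the result was not tested. In bulk RNA, fewer cells of a type and less RNA per cell cannot be told apart.

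**Figure D2:**
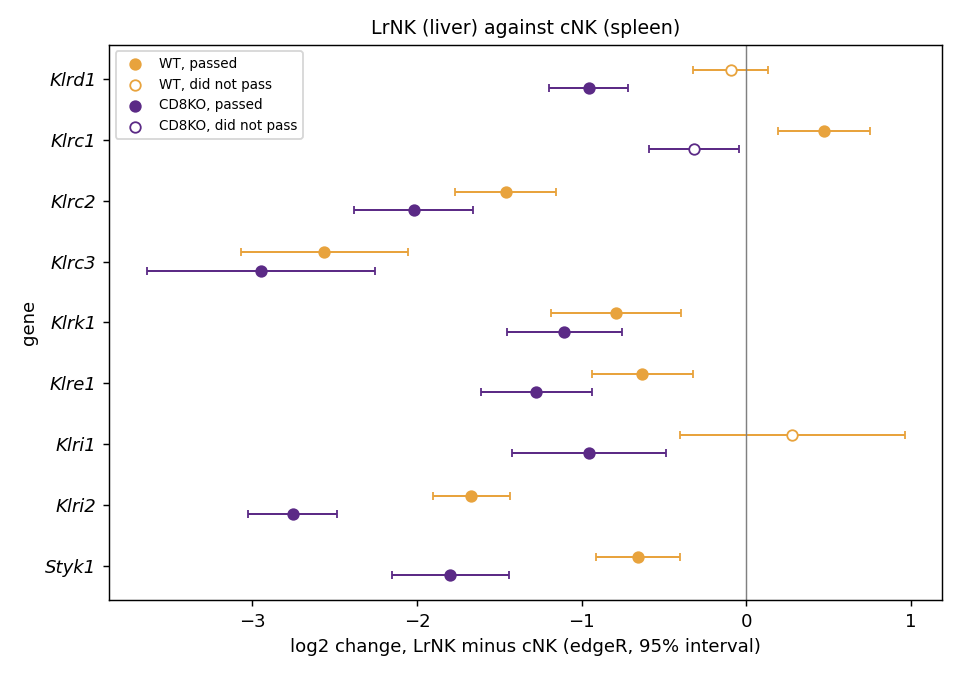
Log2 change of LrNK against cNK with its 95% interval (edgeR), within WT and within CD8KO; filled points passed an adjusted p of 0.05 and open points did not. Klrc3, Klri2 and Klrc2 lie farthest to the left under both labels, and Klrc1 is the one gene to the right of 0 that passed within WT.

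Among the samples labelled CD8KO, 8 of the 9 genes were lower in LrNK than in cNK and Klrc1 did not pass, where 26.3% of all genes tested passed (4686 of 17795). The median log2 change of the 9 was -1.28, against -0.05 over all genes tested. Klrd1 had 347 and 306 CPM in LrNK labelled CD8KO against 698, 663 and 710 in cNK labelled CD8KO, and fell (log2 change -0.96 ± 0.10, edgeR adjusted p = 0.00237). Klrc1 had 438 and 355 CPM in LrNK against 553, 543 and 516 in cNK. Both LrNK samples were lower, with a change of -0.32 ± 0.11 that did not pass (edgeR adjusted p = 0.0873). It passed without sample 1 or sample 2 of LrNK labelled CD8KO (edgeR adjusted p = 3.45e-05 and 0.00394), where the lone LrNK sample left is assumed to vary like the cNK samples.

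Like every other gene of the family, the activating partners had their lowest mean levels in these LrNK samples. Klrc2 had 128 and 140 CPM in LrNK labelled CD8KO against 551, 562 and 668 in cNK labelled CD8KO, and Klrc3 had 7.88 and 12.1 CPM in LrNK against 79.5, 77.3 and 100.3 in cNK. Both fell, Klrc2 with a log2 change of -2.02 ± 0.14 (edgeR adjusted p = 0.00103) and Klrc3 with -2.95 ± 0.28 (edgeR adjusted p = 0.00205), a 7.73-fold difference for Klrc3. Klri2 had 88.2 and 83.5 CPM in LrNK against 617, 603 and 676 in cNK, and fell (log2 change -2.76 ± 0.11, edgeR adjusted p = 0.000218), a 6.75-fold difference. Klri1 had the largest p of the 8 that passed. It had 9.19 and 7.49 CPM in LrNK against 15.3, 17.2 and 20.3 in cNK and fell (log2 change -0.96 ± 0.19, edgeR adjusted p = 0.018), a call lost without any one cNK sample labelled CD8KO (edgeR adjusted p 0.0633 to 0.0983), with voom (0.164) and with a replicate block (0.167). The log2 changes of Styk1 (-1.80 ± 0.14), Klre1 (-1.28 ± 0.13) and Klrk1 (-1.10 ± 0.14) passed as well. Scaled to 8 NK-lineage genes outside the family, a scaling under which the median of all genes moved to 0.38, only Klre1, Klrc2, Klrc3, Klri2 and Styk1 passed. Klrc1 then had a log2 change of 0.15, with its sign turned, and over all genes 3756 were called higher and 674 lower, against 2667 and 2019 with TMM. The 10 neutrophil and monocyte genes summed to 2803 and 9237 CPM in LrNK labelled CD8KO (8 above 1 CPM) and 292 to 320 CPM in cNK labelled CD8KO (6 above 1 CPM, Elane at 0). Lyz2 made up most of the LrNK sums (1964 and 7411 CPM, against 14.3 to 18.9 in cNK). Ly6c2 made up most of the cNK sums and overlapped (176.6 to 226.3 CPM, against 138.4 and 332.8 in LrNK). The 8 hepatocyte genes summed to 38.2 and 48.8 CPM in LrNK labelled CD8KO (8 above 1 CPM) and 1.56 to 1.73 in cNK labelled CD8KO (1 above 1 CPM, with Alb, Ttr, Serpina1a and Fgb at 0). The 10 Kupffer cell genes gave 215 to 445 CPM in LrNK (10 above 1 CPM) and 178 to 268 in cNK (8 above 1 CPM, Clec4f at 0), which overlapped. The 10 B cell genes gave 319 and 440 CPM in LrNK (10 above 1 CPM) and 229 to 242 in cNK (8 above 1 CPM), and the 12 T cell genes 842 and 1066 in LrNK and 740 to 753 in cNK (11 above 1 CPM in both). The 10 NK-lineage genes had a lower sum in LrNK labelled CD8KO, at 6295 and 8262 CPM against 10450 to 10630 in cNK labelled CD8KO. Ncr1, Klrb1c, Nkg7, Cd244a, Txk, Prf1 and, narrowly, Fcer1g were lower in both LrNK samples. Il2rb and Tbx21 overlapped, and Gzmb was higher (955 and 1289 CPM in LrNK against 495 to 577 in cNK). The part of these cells in the result was not tested.

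Ratios of counts within a library need no scaling between libraries. Klrc1 had 2.53 and 3.43 times the counts of Klrc2 in LrNK labelled CD8KO and 2.48 to 3.23 times in LrNK WT, against 0.772 to 1.00 times in cNK labelled CD8KO and 0.665 to 0.801 times in cNK WT. So the inhibitory partner had more counts than the activating partner in all 5 LrNK samples, and about as many or fewer in all 6 cNK samples. The size of such ratios depends on exon length, which is 1.98 kb for Klrc1 and 5.81 kb for Klrc2. Per kb of exon, Klrc1 stood above Klrc2 in every group, cNK included (254 against 116 CPM per kb in cNK WT, 271 against 102 in cNK labelled CD8KO). Klrc2 had 11.5 and 16.2 times the counts of Klrc3 in LrNK labelled CD8KO and 14.0 to 16.6 times in LrNK WT, against 6.66 to 7.28 times in cNK labelled CD8KO and 6.54 to 7.87 times in cNK WT. Klri2 had 9.60 and 11.1 times the counts of Klri1 in LrNK labelled CD8KO and 7.14 to 13.2 times in LrNK WT, against 33.3 to 40.4 times in cNK labelled CD8KO and 36.0 to 38.3 times in cNK WT. For these 3 ratios the LrNK and cNK samples did not overlap, and the 2 labels overlapped within LrNK. Klrd1 had 0.512 and 0.618 times the counts of Klrk1 in LrNK labelled CD8KO and 0.605 to 0.995 times in LrNK WT, against 0.501 to 0.510 times in cNK labelled CD8KO and 0.468 to 0.514 times in cNK WT. The shared stretches of the Klrc genes bear on the first 2 ratios.

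**Figure D3:**
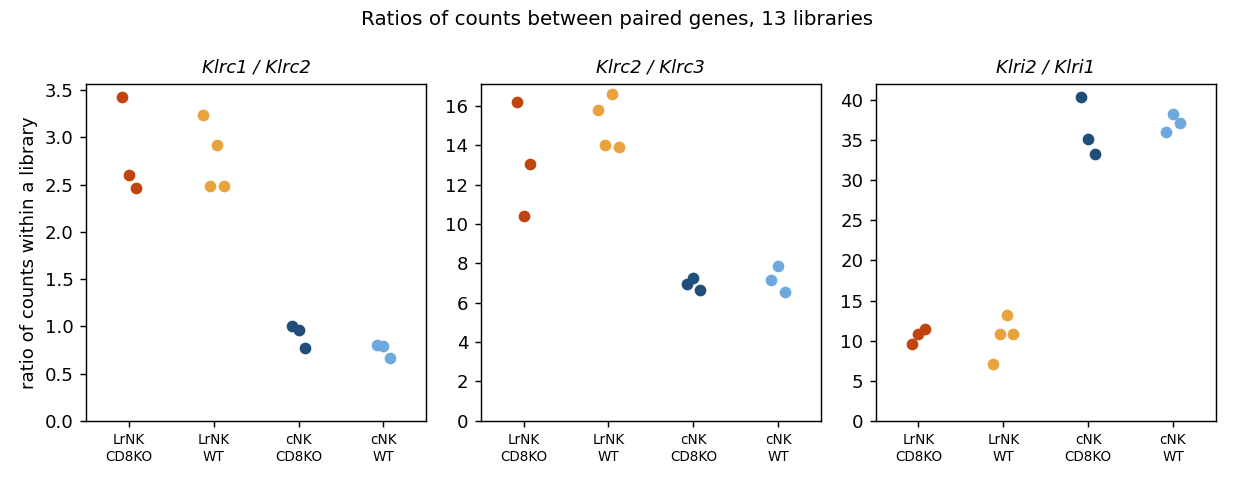
Ratio of counts of Klrc1 to Klrc2, Klrc2 to Klrc3 and Klri2 to Klri1 in each of 13 libraries (points) by group; each axis starts at 0. The LrNK libraries of both labels lie together and apart from the cNK libraries in all 3 panels.

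Within LrNK, all 9 genes had lower mean levels under the CD8KO label, but none passed when the 2 LrNK groups were tested by themselves. In that test 0% of all genes passed (0 of 16504, with 639 at an unadjusted p under 0.05 and 7 of the 9 members among them). The median log2 change of the 9 genes was -0.81, against 0.02 over all genes tested. The 2 samples labelled CD8KO were below all 3 LrNK WT samples for 8 of the 9 genes, the exception being Klrk1 (and, with libraries taken separately, also Klrc3), where 8.43% of all genes tested were lower without overlap. These directions rest on the label as given. Cd8a totals were higher under it, and gene totals cannot show whether Cd8a was disrupted.

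Klrd1 had 347 and 306 CPM in LrNK labelled CD8KO against 617, 624 and 671 in LrNK WT. The log2 change was -0.95 ± 0.21 (95% interval -1.43 to -0.47), with an edgeR adjusted p of 0.802. Klri2 had 88.2 and 83.5 CPM in LrNK labelled CD8KO against 221, 192 and 198 in LrNK WT. Both samples labelled CD8KO lay well under LrNK WT, with a change of -1.23 ± 0.21 and the smallest p of the family (edgeR adjusted p = 0.577). Styk1 had 34.2 and 41.0 CPM in LrNK labelled CD8KO against 89.9, 92.5 and 98.5 in LrNK WT, a change of -1.30 ± 0.24 (edgeR adjusted p = 0.730). Klri1 had 9.19 and 7.49 CPM in LrNK labelled CD8KO against 31.0, 17.8 and 14.98 in LrNK WT. Sample 1 stood above the other LrNK WT samples, and the change was -1.33 ± 0.42 (edgeR adjusted p = 1).

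The NKG2 genes and Klre1 had smaller differences with all samples in. Klrc1 had 438 and 355 CPM in LrNK labelled CD8KO against 754, 611 and 620 in LrNK WT (log2 change -0.73 ± 0.21), and Klrc2 had 128 and 140 CPM in LrNK labelled CD8KO against 233, 246 and 213 in LrNK WT (-0.77 ± 0.23). Klre1 had 272 and 303 CPM in LrNK labelled CD8KO against 459, 558 and 509 in LrNK WT (-0.81 ± 0.24). None of the samples labelled CD8KO reached the LrNK WT range for these 3 genes. Klrc3, at 7.88 and 12.1 CPM in LrNK labelled CD8KO against 14.8, 17.6 and 12.8 in LrNK WT, had a log2 change of -0.56 with an interval of -1.58 to 0.45. It moved to -0.23 without sample 1 of LrNK labelled CD8KO, to -0.9998 without sample 2 of that group, and to -0.38 without sample 2 of LrNK WT. Klrk1 had 677 and 496 CPM in LrNK labelled CD8KO against 1019, 627 and 757 in LrNK WT. Those groups overlapped, and the interval of its log2 change was -1.01 to 0.14. Its log2 change was -0.43 with all samples in and ran from -0.59 to -0.26 when 1 sample was left out.

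The calls for LrNK by label depended on which samples set the spread. With all 4 groups in 1 fit, which has a biological coefficient of variation of 63.6%, Klri2 (edgeR adjusted p = 0.00111), Klrd1 (0.00428), Styk1 (0.00518), Klrc1 (0.0255) and Klre1 (0.045) passed as lower, where 0.218% of all genes tested passed as lower. DESeq2 on the 2 LrNK groups called 3 of the 9 (Klrd1, Klri2 and Styk1) and voom with sample weights called 0. Within the samples with few detected genes (sample 1 labelled CD8KO, LrNK WT samples 1 and 3) the log2 differences of the 9 genes ran from -1.46 to -0.38. Within those with many (sample 2 of each group) they ran from -1.24 to -0.34. For all but Klrk1, both samples labelled CD8KO were below every LrNK WT sample. The sign in each set was thus fixed for those genes, and only the sizes are informative. The 10 NK-lineage markers, all above 1 CPM in every group, summed to 6295 and 8262 CPM in LrNK labelled CD8KO and 9698 to 11800 CPM in LrNK WT. The cytotoxic granule gene Gzmb made up much of that gap, with 955 and 1289 CPM in LrNK labelled CD8KO against 2793 to 3605 in LrNK WT. Without Gzmb and Prf1 the other 8 summed to 5136 and 6760 CPM in LrNK labelled CD8KO and 6629 to 8105 in LrNK WT, which overlapped. None of the 8 passed in a test where 0 of 16504 genes did, which says little about them. All 8 had log2 changes below 0, from -0.66 (Nkg7) to -0.07 (Cd244a). Ncr1, Klrb1c, Nkg7 and Fcer1g were below every LrNK WT sample in both samples labelled CD8KO, while Il2rb, Cd244a, Txk and Tbx21 overlapped. Scaled to those 8 lineage genes, the median over all genes moved to 0.37 and the log2 changes of the 9 genes ran from -0.98 (Styk1) to -0.05 (Klrk1), none passing. The 10 neutrophil and monocyte genes summed to 2803 and 9237 CPM in LrNK labelled CD8KO (8 above 1 CPM) and 721 to 4385 CPM in LrNK WT (7 above 1 CPM, Mpo and Elane at 0). Lyz2 made up most of these sums (1964 and 7411 CPM in LrNK labelled CD8KO, 520 to 3532 in LrNK WT). The 10 B cell genes summed to 319 and 440 CPM in LrNK labelled CD8KO (10 above 1 CPM) and 240 to 365 CPM in LrNK WT (5 above 1 CPM). The 12 T cell genes summed to 842 and 1066 CPM in LrNK labelled CD8KO (11 above 1 CPM) and 1423 to 1778 CPM in LrNK WT (11 above 1 CPM, Cd8b1 at 0). The lower T cell sum lay mainly in Cd3g (179 and 178 CPM in LrNK labelled CD8KO against 538 to 620.5 in LrNK WT), Trbc1 and Trbc2. Trac (38.6 and 40.96 CPM in LrNK labelled CD8KO against 26.7 to 35.9 in LrNK WT), Cd4 (12.8 and 18.3 against 3.69 to 10.6) and Cd8a were higher in both samples labelled CD8KO. The part of these cells in the result was not tested.

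**Figure D4:**
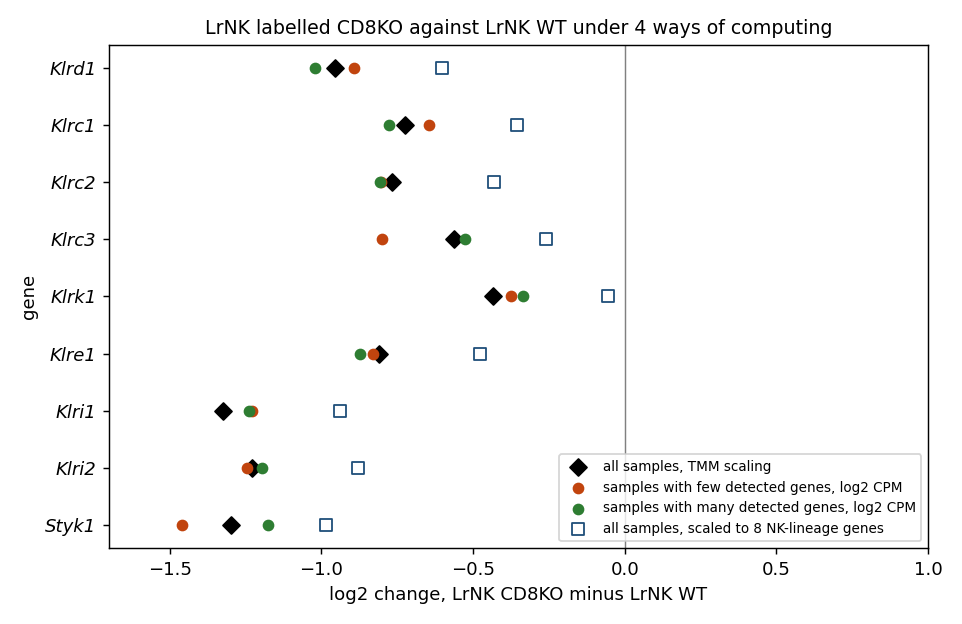
Log2 change of LrNK labelled CD8KO against LrNK WT for each gene under 4 ways of computing it: TMM scaling of all samples, log2 CPM within samples with few or with many detected genes, and scaling to 8 NK-lineage genes. Every point lies left of 0, and the NK-lineage scaling gives the smallest differences, with Klrk1 near 0.

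Within cNK, none of the 9 genes passed under the CD8KO label (edgeR, 5 of 9 at an unadjusted p under 0.05, 0 by DESeq2 and 0 by voom), where 1.52% of all genes tested passed (253 of 16619, with 2161 at an unadjusted p under 0.05). Klrd1 had 698, 663 and 710 CPM in cNK labelled CD8KO against 701, 707 and 753 in cNK WT. The groups overlapped, and the 95% interval of the log2 change was -0.17 to 0.03. Klrc2 had 551, 562 and 668 CPM in cNK labelled CD8KO against 679, 611 and 731 in cNK WT, the largest difference of the 9 at -0.19 ± 0.07 (edgeR adjusted p = 0.227). It passed without sample 3 of cNK labelled CD8KO (log2 change -0.28, edgeR adjusted p = 0.0305). Klrc1 was the one member with a higher mean in cNK labelled CD8KO, at 553, 543 and 516 CPM against 544, 485 and 486 in cNK WT (0.08 ± 0.05, edgeR adjusted p = 0.532). Klri2 had 617, 603 and 676 CPM in cNK labelled CD8KO against 697, 656 and 698 in cNK WT (-0.12 ± 0.05, edgeR adjusted p = 0.273).

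The cNK intervals were narrow. For 8 of the 9 genes the 95% interval stayed between -0.33 and 0.19, and the widest, for Klrc3, was -0.57 to 0.26. The groups did not overlap for 2 of the 9, Klrk1 and Klre1, both lower in cNK labelled CD8KO, where 8.35% of all genes tested were lower without overlap. Klrk1 had 1392, 1299 and 1410 CPM in cNK labelled CD8KO against 1499, 1418 and 1465 in cNK WT, and Klre1 had 799, 695 and 788 CPM in cNK labelled CD8KO against 836, 852 and 819 in cNK WT. Neither passed (edgeR adjusted p = 0.357 and 0.241).

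**Figure D5:**
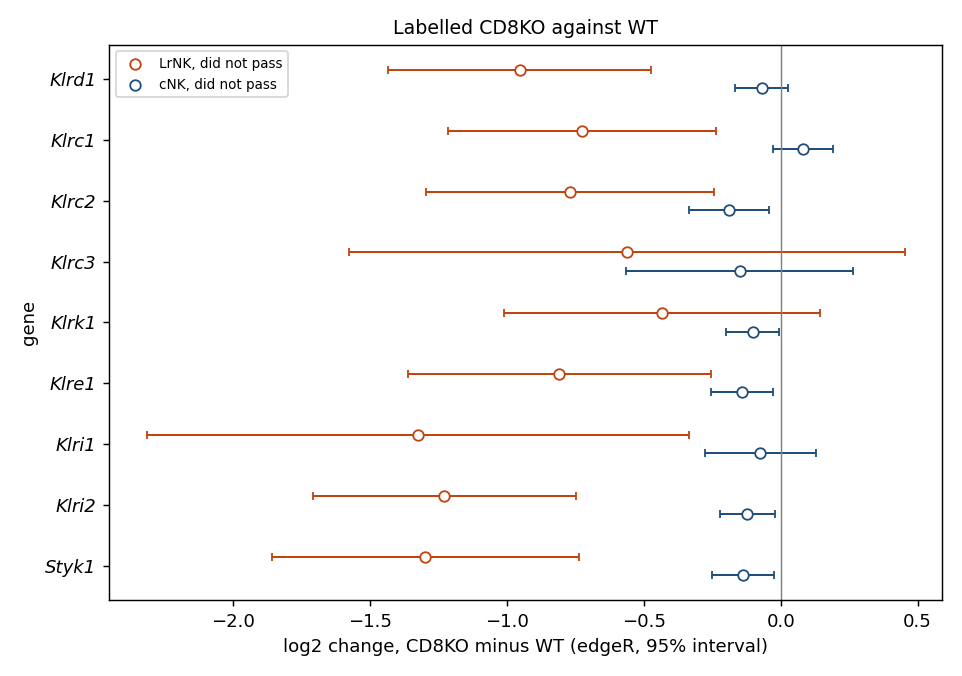
Log2 change of samples labelled CD8KO against WT with its 95% interval (edgeR), within LrNK and within cNK; open points did not pass an adjusted p of 0.05. The LrNK points lie left of the cNK points for all 9 genes and have wider intervals.

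Whether the label differed in size between LrNK and cNK was tested as a difference of the 2 log2 changes in a fit of all 4 groups. That fit shares 1 spread over all samples, with a biological coefficient of variation of 63.6%, against 98.2% within LrNK and 9.60% within cNK. It is therefore lenient for LrNK: the Klri2 SE of 0.13 is below the 0.21 of its LrNK part alone. Klri2 was the 1 member of 9 that passed, where 0.0415% of all genes tested passed (8 of 19287). Its log2 change by label was lower in LrNK than in cNK by a difference of -1.11 ± 0.13 (edgeR adjusted p = 0.0156), and all 9 genes had differences below 0, from -1.25 (Klri1) to -0.33 (Klrk1). Styk1 (-1.16 ± 0.18, edgeR adjusted p = 0.0905) and Klrd1 (-0.89 ± 0.13, edgeR adjusted p = 0.0706) did not pass. The Klri2 call was lost without sample 1 of LrNK labelled CD8KO (edgeR adjusted p = 0.0682) and without any one cNK sample (edgeR adjusted p 0.071 to 0.119), with voom (0.223) and with scaling to the NK-lineage genes (-0.72, edgeR adjusted p = 0.244), which left 0 genes called higher and 2 lower against 1 and 7. As within LrNK, the direction rests on the label. Without sample 1, 2 or 3 of LrNK WT, 2, 4 and 3 members passed, and without sample 2 of LrNK labelled CD8KO 3 passed, Klri2 and Klrd1 among them each time.

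The genes these receptors work with were read from a list of 39: 3 adaptors, 12 ligands, 4 inhibitory and 20 activating signalling genes. None of those tested passed by label, in LrNK (0 of 33, against 0% of all genes tested) or in cNK (0 of 32, against 1.52%), and none in the difference (0 of 34, against 0.0415%). With so few calls over all genes, these counts of 0 say little about the list. Between LrNK WT and cNK WT, 7 of 32 were higher and 5 lower, where 20.4% of all genes tested passed in either direction. Plcg1, a phospholipase that generates second messengers below tyrosine kinases, had 60.2 CPM in LrNK WT against 5.17 in cNK WT (log2 change 3.63 ± 0.34, edgeR adjusted p = 0.00135). The adaptor Lcp2, which encodes SLP-76 (0.86), and the kinase Zap70 (0.98) were higher too, while the kinases Syk (-0.92) and Fyn (-1.50) were lower. The class I gene H2-T22 was higher (0.66). H2-T23, which encodes Qa-1, named here for its role after its value was seen, had 820 CPM in LrNK WT against 513 in cNK WT and passed (0.75 ± 0.19, edgeR adjusted p = 0.0398). The adaptor Tyrobp had 999 CPM in LrNK WT against 978 in cNK WT and did not pass (edgeR adjusted p = 0.598).

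Between LrNK and cNK labelled CD8KO, 8 of 33 were higher and 6 lower, where 26.3% of all genes tested passed. Plcg1 (3.83), Lcp2 (0.92) and the exchange factor Vav3 (1.01) were higher, and Fyn (-1.59), the adaptor Lat2 (-0.91) and the ubiquitin ligase Cbl (-0.70) were lower, all as log2 changes that passed. Tyrobp, the adaptor of NKG2C and NKG2E, also named after its value was seen, had 727 CPM in LrNK against 1064 in cNK and passed as lower (-0.43 ± 0.10, edgeR adjusted p = 0.0307). Plcg1, Lcp2 and Fyn moved in the same direction under both labels.

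The pattern of Klrd1 over the 11 samples was closest to that of St3gal6, a sialyltransferase gene, by the root mean square difference of centred log2 CPM (0.12, among 8945 genes whose mean log2 CPM reached 3). Dnajc15 (0.14), Fbxl4 (0.16), Gimap9 (0.16) and Klrb1a (0.16) followed. St3gal6 had 65.2 CPM in LrNK labelled CD8KO, 135 in LrNK WT, 138 in cNK labelled CD8KO and 140 in cNK WT. Of the members, Klre1 was nearest to Klrd1 (0.25) and Klrc3 farthest (1.15). Its NKG2 partners Klrc1 (0.32) and Klrc2 (0.63) stood in between.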

How the data were processed

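Gene counts of 13 libraries were used as deposited, 1 whole-number count per Ensembl identifier. Libraries were made with an Illumina TruSeq kit from sorted cells, per the labels' protocols. HISAT2 2.1.0 and GRCm38 are named per the submitters' processing notes; which program counted, with which annotation and strand option, is not given in the sources used here, so reads of overlapping or antisense genes could not be told apart. Of 54532 identifiers, 54495 matched GENCODE M21.

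The 9 genes, the 39 pathway genes and the markers were chosen with earlier results of these data known. All 9 genes are named; pathway genes that passed are named up to 6 per comparison by smallest p; the 5 genes most like Klrd1 were taken among those whose mean log2(CPM + 0.5) reached 3. Libraries with a chi-square per degree of freedom under 4, over genes with at least 12 counts, were summed. Sets with few or many detected genes were split at 16000. The 2 limits were set with the data in view.

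Tests used edgeR 4.0.16 in R 4.3.3: TMM scaling, filterByExpr (minimum count 10, minimum total 15), robust quasi-likelihood fits of the 2 groups compared (all 4 for the difference of label effects), and Benjamini-Hochberg adjusted p under 0.05 over all genes tested. CPM are counts per 1000000 counts of the library, without TMM. Errors after ± are SD for CPM and SE for log2 changes. The steps were tested on simulated data. Alternatives were DESeq2 1.42.0, voom with sample weights (limma 3.58.1), all 4 groups in 1 fit, RLE normalization, no filter on low counts, 13 separate libraries, a replicate block, scaling to 8 NK-lineage genes, the detection sets, and each sample left out.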

Additional observations from a re-analysis of the deposited data

Results flagged for a closer look

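In a fit of all 4 groups with 1 shared spread, the label's effect on Klri2 differed between the cell types by a test of the difference itself. The shared coefficient of variation was 63.6%, lower than the 98.2% within LrNK, so the test is lenient for LrNK. Tested within LrNK alone, Klri2 did not pass (log2 change -1.23 ± 0.21, edgeR adjusted p = 0.577). The log2 change by label in LrNK minus that in cNK was -1.11 (edgeR adjusted p = 0.0156), with both LrNK samples labelled CD8KO at 88.2 and 83.5 CPM under the LrNK WT samples at 221, 192 and 198 CPM, while cNK had 617, 603 and 676 CPM under the CD8KO label and 697, 656 and 698 CPM in WT. The call was lost without sample 1 of LrNK labelled CD8KO, which leaves 1 sample in that group, and without any one cNK sample (edgeR adjusted p 0.071 to 0.119). It was also lost with voom, with a replicate block and with scaling to the NK-lineage genes (-0.72, edgeR adjusted p = 0.244). The direction rests on the label as given. Cd8a totals were higher under it, and gene totals cannot show whether Cd8a was disrupted.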

How the results depend on the processing

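Over the 5 comparisons, 733 of 738 values of the 9 genes kept their direction under the alternatives. The alternatives reuse the same samples, and signs within detection sets were fixed where groups did not overlap. The count is therefore no independent support for the directions. The cause of the changes below was not tested. Klri1 ranged from -0.1835 to 0.01004 in cNK by label when 1 sample was left out, reversed without sample 1 of cNK labelled CD8KO, and from -0.08695 to 0.4717 in LrNK WT against cNK WT, reversed without LrNK WT sample 1 and at -0.05797 within LrNK samples with many detected genes. Scaling to 8 NK-lineage genes turned Klrc1 to 0.148 in LrNK against cNK labelled CD8KO and Klrk1 to 0.08536 in the difference of label effects. In LrNK by label, against 0 genes and 0 members called, the 13 libraries taken separately gave 27 and 3, the 4-group fit 139 and 5, DESeq2 62 and 3, no filter 259 and 2, and NK-lineage scaling 1 gene. In cNK by label, against 253 and 0, the 4-group fit gave 1 gene, DESeq2 512 genes and no filter 567 and 1. In LrNK against cNK labelled CD8KO, NK-lineage scaling left 5 of 8 members. In the difference, against 8 genes and 1 member, separate libraries gave 70 and 4, DESeq2 337 and 4, no filter 14 genes, NK-lineage scaling 2 and 0, and voom 0 members. LrNK samples with many detected genes only, an alternative added after seeing the data, left 1 sample in each LrNK group. Its spread came from the cNK samples alone, so its counts cannot be compared with those of the other fits. They were 3014 genes and 7 members in the difference and 11594 genes in LrNK WT against cNK WT.

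With 1 sample left out, genes and members called ranged over 0 to 1 and 0 to 0 in LrNK by label, 81 to 292 and 0 to 1 in cNK by label, 1059 to 6662 and 3 to 7 in LrNK WT against cNK WT, 1560 to 13086 and 7 to 9 in LrNK against cNK labelled CD8KO, and 5 to 587 and 0 to 4 in the difference. A sample left alone in a group is assumed to vary like the other samples fitted.

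Same-numbered samples had correlations of deviations of 0.342 and 0.53 in LrNK by label, which shares only 2 numbers, too few to take them as pairs, and of 0.000689, -0.0147 and 0.126 in cNK by label, -0.117 to -0.00105 between LrNK WT and cNK WT, and 0.049 and 0.00407 between the cell types labelled CD8KO; the labels tie no numbers to shared animals or batches. A replicate block gave 190 genes and 2 members (Klri2, Styk1) in LrNK by label, 419 and 1 (Klrc2) in cNK by label, 2041 genes in LrNK WT against cNK WT (Klrc1 no longer passed, edgeR adjusted p = 0.0876; nor without the filter, 0.0672), 2077 genes and 7 members in LrNK against cNK labelled CD8KO (Klri1 no longer passed, edgeR adjusted p = 0.167), and 0 members in the difference. Counts per member were at least 283 in every library, so counting error was small beside the spread between LrNK samples, of which 1 group had only 2.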
